A study of Mus musculus with 5 samples.

Results

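The genes of the RNA polymerase I, II and III machinery were described in lenses of embryonic day 14 mice with and without N-myc. Members were the rows of the count table whose symbol names a subunit of polymerase I, II or III (Polr1, Polr2 or Polr3 followed by a letter), a subunit of the polymerase I factor SL1 (Taf1a to Taf1d), a TFIIIA or TFIIIC gene (Gtf3), Brf1, Brf2, Rrn3 or Ubtf. The rule found 42 of 12370 symbols, which are 27 subunit genes and 15 genes of initiation factors. All 42 passed the filter on low counts, with raw counts of 37 to 5078 in a library. By this rule, polymerase I had 3 subunit genes of its own, polymerase II 8 and polymerase III 10. Subunits under other symbols, such as Cd3eap, Twistnb, Znrd1 and Crcp, are not members and are not in the class values. Another 2 subunits are shared by polymerases I and III, and 4 are shared by all of the polymerases.

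Cre-negative embryos gave the 3 control libraries, with N-myc alleles flanked by loxP sites (N-mycloxP/loxP). The labels describe controls with and without loxP-flanked c-myc alleles but do not tie either kind to a library. The 2 knockout libraries came from Mlr10-Cre+/- embryos with the same N-mycloxP/loxP alleles, in which the Mlr10-Cre transgene expresses Cre recombinase in the lens. Only knockout embryos carried the transgene, so its effects and those of the deletion cannot be told apart. Each library is a pool of lens lysates, so the spread behind every p-value is that between pools.

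Eukaryotic nuclei divide transcription between these enzymes. Polymerase I makes the long ribosomal RNA precursor in the nucleolus, polymerase II makes messenger RNA, and polymerase III makes transfer RNA, 5S ribosomal RNA and other short RNAs. MYC proteins are known to raise transcription by all of these enzymes in growing cells, partly through genes for their subunits and initiation factors. In the lens, growth rests on dividing epithelial cells and on fibre cells that synthesize very large amounts of protein before they lose their nuclei.

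Mycn, the deleted gene, stood at 162, 148 and 140 CPM (depth-normalised read count, TMM-scaled) in control replicates 1 to 3 and at 57.3 and 81.9 CPM in knockout replicates 1 and 2 (log2 fold change -1.11, SE 0.15, edgeR adjusted p = 0.0097), counted over the whole gene. Library totals lay between 13162384 and 13746416 counts. On the first principal component, with 62.3% of the variance, knockout replicate 1 stood at 50.3, knockout replicate 2 at 11.9 and the controls between -21.4 and -19.7. Of 11 lens markers 3 fell and 0 rose, and their summed level was 84948 to 106595 CPM in the controls and 79234 and 92754 CPM in the knockouts. Of 9 tested retina markers 8 rose (summed level 71.5 to 73.5 CPM in the controls, 113.6 and 227.5 CPM in the knockouts), and of 10 periocular mesenchyme markers 4 rose (580 to 863 CPM against 2330 and 735 CPM). Skeletal muscle markers summed to 10.9 to 53.4 CPM in the controls and to 395 and 15.4 CPM in the knockouts, and 0 of 6 were called. Endothelial markers (0 of 8 called) lay at 217 to 266 CPM and at 225 and 234 CPM. Red blood cell markers, of which 1 of 5 fell, lay at 151 to 186 CPM and at 113 and 120 CPM, with Hba-a1, Hba-a2 and Hbb-bt listed at 0 in all libraries. The part of these other cells in the results below was not tested. Polymerase genes are expressed in all of these cells, and in bulk tissue fewer cells of a type and less RNA per cell cannot be told apart.

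Of the 42 genes, 2 fell in the knockout lenses and 0 rose (edgeR quasi-likelihood test, adjusted p under 0.05 over all 12035 genes tested). Among all genes tested 16.5% were called, 8.51% lower and 7.98% higher, so the share of members called (4.76%) was below the background. The genes that fell were Taf1d, a subunit of the polymerase I initiation factor SL1, and Polr3g, a subunit of polymerase III. At an unadjusted p under 0.05 stood 14 members, or 33.3%, against 35.8% of all genes tested. The direction was uneven between subunits and factors. Of the 27 subunit genes 23 had a log2 fold change below 0, with a median of -0.25, against 49.8% of all genes tested and a median of 0.0021. Of the 15 factor genes 6 were below 0, with a mean of -0.025 and a median of the other sign, 0.076 (-0.04 after an offset for transcript length and GC content, fitted in each library). Of all calls 48.4% were higher, 70.3% when counts were scaled by library totals alone and 38.4% after the length and GC offset. The calls leaned on single libraries. Without control replicate 2, edgeR called 38 of all genes and 0 of the members, and without control replicate 3 it called 237 and 1. The median log2 fold change of the members was -0.15 in the full fit. It was -0.11 without knockout replicate 1 and -0.18 without knockout replicate 2.

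Gene by gene, for 15 of the 27 subunit genes (55.6%) both knockout libraries lay below every control library, against 27.0% of all genes tested, and for 0 of them both lay above, against 25.5% (52.5% of all genes tested did not overlap in either direction). Among the factors 4 lay below and 5 above. The 95% intervals of the fit reached below a log2 fold change of -1 for only 1 of the 40 members that were not called, Polr2l, so for the other 39 a fall of 2-fold or more lay outside the interval.

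**Figure D1:**
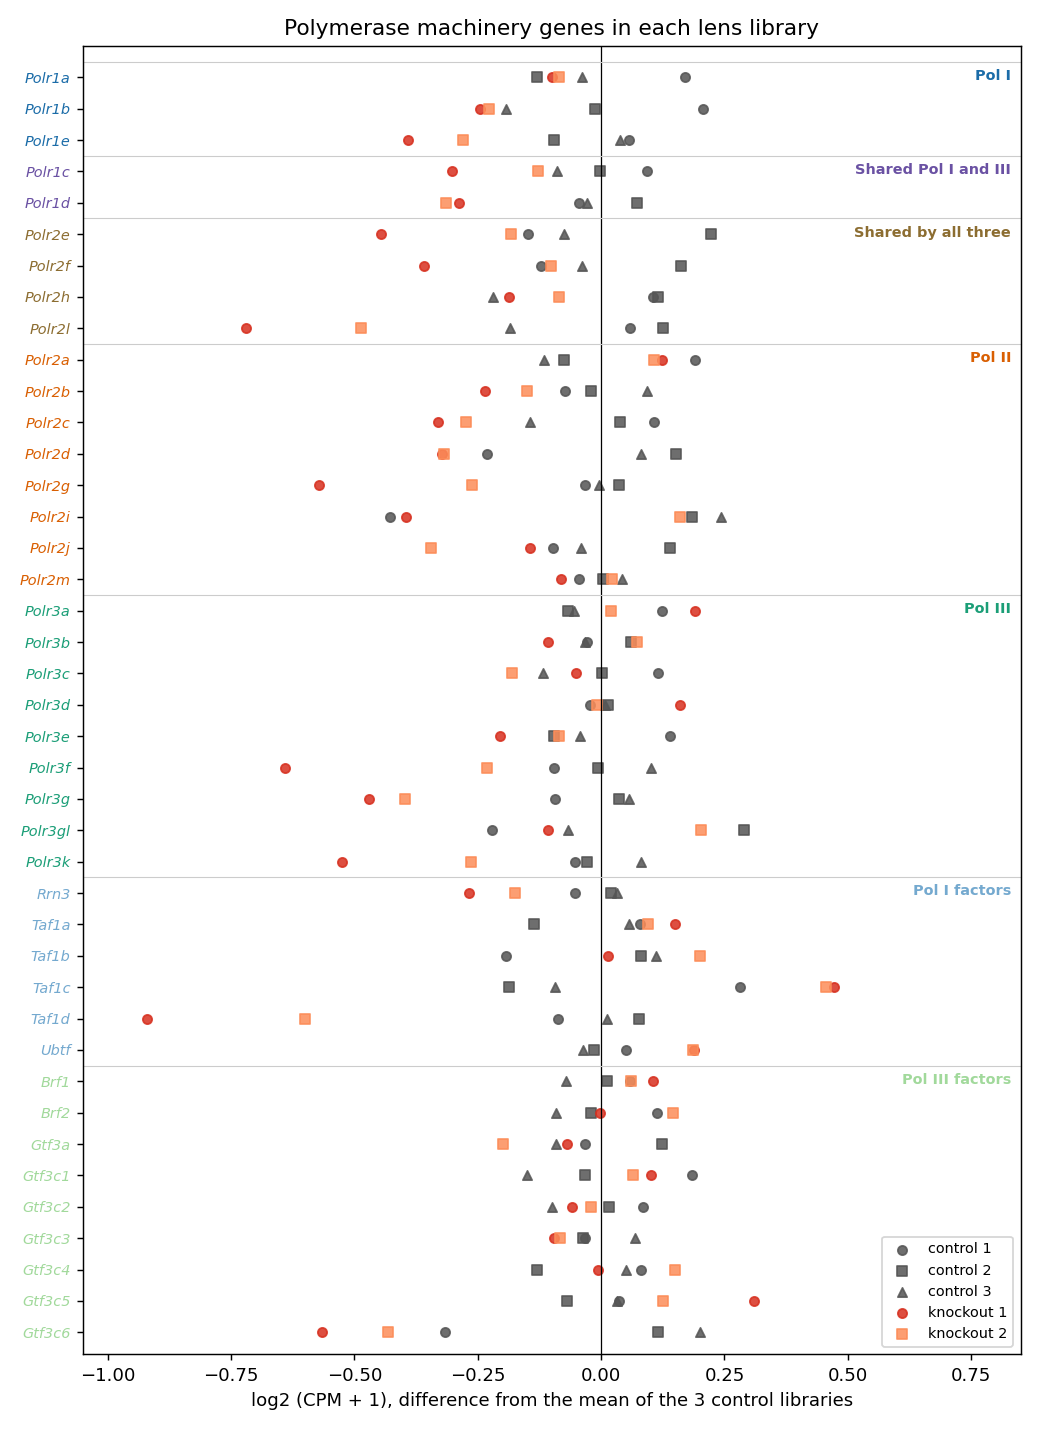
Levels of 41 of the genes in each of the 5 libraries, as log2 (CPM + 1) minus the mean of the 3 control libraries (x axis), 1 row per gene, grouped by polymerase. Knockout points lie left of every control point for 14 of the 26 subunit genes drawn, and Taf1d lies farthest left.

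The promoters of the genes that fell are shown because MYC-MAX dimers are known to bind the E-box CACGTG and related letters. The windows run from 250 bases before to 50 bases after a RefSeq gene start (GRCm38.p6). Capitals mark CACGTG, which reads the same on both strands, or CACGCG on either strand (CGCGTG as printed when it lies on the other strand). Polr3gl is given beside its paralog Polr3g, and Rrn3 because its window holds 2 matches to CACGTG.
Taf1d, chr9:15305964-15306263, plus strand: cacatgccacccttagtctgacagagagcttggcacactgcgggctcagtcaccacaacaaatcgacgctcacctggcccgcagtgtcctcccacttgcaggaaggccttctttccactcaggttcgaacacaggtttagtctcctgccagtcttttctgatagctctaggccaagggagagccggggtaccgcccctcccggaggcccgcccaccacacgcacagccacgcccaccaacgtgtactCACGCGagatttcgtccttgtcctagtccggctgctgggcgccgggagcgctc
Polr3g, chr13:81710964-81711263, minus strand: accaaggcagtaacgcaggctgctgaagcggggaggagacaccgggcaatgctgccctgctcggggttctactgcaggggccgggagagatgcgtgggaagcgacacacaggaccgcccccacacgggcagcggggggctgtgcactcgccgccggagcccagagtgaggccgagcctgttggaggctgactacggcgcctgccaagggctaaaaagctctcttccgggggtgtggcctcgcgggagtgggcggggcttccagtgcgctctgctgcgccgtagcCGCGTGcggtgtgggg
Polr3gl, chr3:96594132-96594431, minus strand: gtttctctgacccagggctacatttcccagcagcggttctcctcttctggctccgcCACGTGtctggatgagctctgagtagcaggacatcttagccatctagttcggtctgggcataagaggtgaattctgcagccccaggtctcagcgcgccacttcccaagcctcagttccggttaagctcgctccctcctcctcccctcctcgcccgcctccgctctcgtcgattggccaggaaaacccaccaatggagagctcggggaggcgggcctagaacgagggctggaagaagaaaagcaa
Rrn3, chr16:13780449-13780748, plus strand: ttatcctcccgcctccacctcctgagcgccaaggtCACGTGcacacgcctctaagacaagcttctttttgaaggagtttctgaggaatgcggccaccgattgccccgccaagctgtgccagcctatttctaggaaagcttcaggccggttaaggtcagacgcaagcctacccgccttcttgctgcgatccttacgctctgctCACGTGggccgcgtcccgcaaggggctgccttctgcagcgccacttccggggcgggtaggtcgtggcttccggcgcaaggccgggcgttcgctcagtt
The windows of Taf1d and Polr3g, the genes that fell, hold 0 matches to CACGTG and 1 each to CACGCG. In Rrn3 the matches to CACGTG begin 215 and 48 bases before the start, and in Polr3gl the match begins 194 bases before it.

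The table of promoters had 45 windows for 35 of the 42 members. CACGTG occurred in 7 of the 45 windows (15.6%), against 7.15% of all 32851 windows and 9.98% of the windows of genes in the count table. Both windows of Gtf3c6 hold the same site, and by gene the share was 6 of 35 (17.1%), against 12% of the genes in the count table. CACGCG occurred in 15 of 45 windows (33.3%), against 9.27% and 17.3%, and by gene in 14 of 35 (40%), against 20.7% of the genes in the count table. In 0 member windows did the motifs overlap each other. Besides Rrn3 and Polr3gl, CACGTG lay in windows of 4 genes, given with 10 bases on either side and the E-box in capitals.
Gtf3c6, chr10:40257753-40257778, minus strand: gtcgagtctcCACGTGggacccactt
Polr2h, chr16:20717839-20717864, plus strand: tacttttctcCACGTGagggggtgcg
Polr3c, chr3:96727661-96727686, minus strand: ccgcaagggtCACGTGagtccgcccg
Polr3e, chr7:120917773-120917798, plus strand: ccgctcccccCACGTGtccggcggag
Of the 6 genes with CACGTG, 0 were called, against 16.5% of all genes tested. Polr3gl had a fold change above 0, and Gtf3c6, Polr2h, Polr3c, Polr3e and Rrn3 had fold changes below 0. A match describes letters in the reference and is not evidence of binding in these lenses.

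The catalytic core of each enzyme is built by its largest and its next-largest subunit, which together form the active site. Polr1a, the largest subunit of polymerase I, stood at 157, 128 and 136 CPM in control replicates 1 to 3 and 130.5 and 132 CPM in knockout replicates 1 and 2 (log2 fold change -0.098, SE 0.10, edgeR adjusted p = 0.51). Polr2a, which carries the heptad-repeat tail that couples polymerase II to RNA processing, stood at 381, 317 and 308 CPM in the controls and 363 and 359.5 CPM in the knockouts (log2 fold change 0.11, SE 0.11, edgeR adjusted p = 0.5). Polr3a, their counterpart in polymerase III, stood at 51, 44.6 and 44.9 CPM in the controls and 53.5 and 47.4 CPM in the knockouts (log2 fold change 0.11, SE 0.10, edgeR adjusted p = 0.48). In these 3 genes the ranges of the groups overlapped, with control replicate 1 the highest control in each.

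For the partner subunits of the core, Polr1b was at 58, 49.7 and 43.7 CPM in the controls and 42.2 and 42.7 CPM in the knockouts (log2 fold change -0.25, SE 0.13, edgeR adjusted p = 0.19). Polr2b was at 135, 139.7 and 151 CPM in the controls and 120.2 and 128 CPM in the knockouts (log2 fold change -0.20, SE 0.085, edgeR adjusted p = 0.14), and Polr3b at 46.2, 49.3 and 46.1 CPM in the controls and 43.7 and 49.6 CPM in the knockouts (log2 fold change -0.016, SE 0.096, edgeR adjusted p = 0.92). Polr1b and Polr2b lay below every control in both knockout libraries, by small margins, and Polr3b overlapped. None of the 6 core genes passed the test, against 16.5% of all genes tested. The widest of their 95% intervals, that of Polr1b, ran from -0.54 to 0.037. After the offset for transcript length and GC content, Polr1a passed (log2 fold change -0.32, edgeR adjusted p = 0.037), the fold change of Polr2b was -0.10, and those of Polr2a and Polr3a turned to -0.13 and -0.033.

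The 9 members that are subunits of polymerase I, shared ones included, had fold changes below 0, and none passed the test. Znrd1, a polymerase I subunit outside the symbol rule, had a log2 fold change of 0.094. Polr1e, which with a partner forms a module of polymerase I related to the factor TFIIF, stood at 16.4, 14.6 and 16.2 CPM in the controls and 11.7 and 12.8 CPM in the knockouts (log2 fold change -0.36, SE 0.14, edgeR adjusted p = 0.11). Polr1c and Polr1d form the assembly platform of polymerases I and III. Polr1c was at 24.2, 22.6 and 21.3 CPM in the controls and 18.2 and 20.7 CPM in the knockouts (log2 fold change -0.22, SE 0.13, edgeR adjusted p = 0.24), and Polr1d at 15.5, 16.9 and 15.7 CPM in the controls and 13 and 12.7 CPM in the knockouts (log2 fold change -0.32, SE 0.13, edgeR adjusted p = 0.12). Both knockout libraries lay below all controls in each of these 3 genes. Of the 9 members that are subunits of polymerase I, 9 had a fold change below 0, against 49.8% of all genes tested. For 6 of them (66.7%) both knockout libraries lay below all controls, against 27.0%, and 0 were called, against 16.5%. Under the length and GC offset Polr1d had a log2 fold change of -0.20 and Polr1e -0.37.

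The subunits common to all of the polymerases sit around the core and serve its assembly and stability. Polr2l, the least abundant of them per kilobase of transcript, stood at 6.11, 6.45 and 5.01 CPM in control replicates 1 to 3 and 3.15 and 3.87 CPM in knockout replicates 1 and 2. Both knockout values were under the lowest control value. Its fold change was the largest of any subunit gene (log2 fold change -0.74, SE 0.24, edgeR adjusted p = 0.068, 95% interval -1.29 to -0.19), on raw counts of 44 to 85. Polr2e was at 20.4, 26.6 and 21.5 CPM in the controls and 16.4 and 19.9 CPM in the knockouts (log2 fold change -0.33, SE 0.16, edgeR adjusted p = 0.17). Polr2f (log2 fold change -0.26) and Polr2h (-0.16) overlapped between groups, with 79 to 141 counts in a library. The length and GC offset gave -0.66 for Polr2l and -0.50 for Polr2e, both uncalled. Knockout replicate 1 held the lower knockout value in all 4 of these genes. Polr2k, a further common subunit, was not analysed here.

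Among the 8 genes of polymerase II alone, 5 (62.5%) had both knockout libraries below all controls, against 27.0% of all genes tested. None was called, against 16.5%, and 7 (87.5%) had a fold change below 0, against 49.8%. Polr2g, part of the stalk that contacts the emerging RNA, had the largest of these changes. It stood at 26.6, 27.9 and 27.1 CPM in the controls and 18 and 22.5 CPM in the knockouts (log2 fold change -0.43, SE 0.13, edgeR adjusted p = 0.057), with knockout replicate 1 well below knockout replicate 2. Its stalk partner Polr2d was at 7.68, 10.3 and 9.79 CPM in the controls and 7.16 and 7.17 CPM in the knockouts (log2 fold change -0.37, SE 0.19, edgeR adjusted p = 0.2). Polr2c and Polr2j, the assembly platform of polymerase II, had log2 fold changes of -0.33 and -0.26, with both knockout libraries below the controls. After that offset for length and GC, Polr2c passed (-0.58, edgeR adjusted p = 0.039), while Polr2g had -0.17 (edgeR adjusted p = 0.33) and Polr2d -0.11. Polr2g passed without knockout replicate 2 (-0.60, edgeR adjusted p = 0.02).

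Polr2m encodes Gdown1, a protein that binds polymerase II and makes it dependent on Mediator. It stood at 131, 135 and 139 CPM in the controls and 128 and 137 CPM in the knockouts, nearly level in all libraries (log2 fold change -0.028, SE 0.078, edgeR adjusted p = 0.82, 95% interval -0.21 to 0.15). Polr2i, a jaw subunit with a part in transcript cleavage, varied from 5.02 to 8.58 CPM among the controls and did not separate the groups (-0.14, SE 0.29). Exons of Polr2b, Polr2c, Polr2i and Polr2j overlap exons of a gene on the other strand in GENCODE. Without a stated strand setting, reads of such pairs cannot be told apart, which holds for 15 of the 42 members.

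Polymerase III held the 1 subunit gene that passed the test. Polr3g stood at 42.4, 46.5 and 47.2 CPM in control replicates 1 to 3 and 32.4 and 34.1 CPM in knockout replicates 1 and 2 (chromosome 13, 81673843 to 81711013, GRCm38). Both knockout values were well below the lowest control value. It was 1.36-fold lower (45.4 ± 2.60 CPM, SD, n = 3, against 33.3 ± 1.22 CPM, SD, n = 2). On the log2 scale the change was -0.45 (SE 0.097, edgeR adjusted p = 0.026; 95% interval -0.67 to -0.22). Polr3g encodes a subunit of the trimer that opens promoters, and is known as the form of that subunit linked to undifferentiated, proliferating cells. The call was lost in 6 of 14 alternatives, among them leaving out control replicate 2, control replicate 3 or knockout replicate 1 and applying the length and GC offset. The adjusted p then lay between 0.062 and 0.27, while the fold change stayed between -0.49 and -0.23 in all 14.

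Polr3gl, the paralogous subunit that replaces Polr3g in another form of the enzyme, was at 2.90, 4.55 and 3.34 CPM in the controls and 3.22 and 4.23 CPM in the knockouts (log2 fold change 0.050, SE 0.29, edgeR adjusted p = 0.92). The groups overlapped, on raw counts of 37 to 60, and the 95% interval was wide (-0.62 to 0.72). Per kilobase of transcript, the level of Polr3g was 6.83, 4.77 and 6.61 times that of Polr3gl in control replicates 1 to 3 and 4.70 and 3.77 times in knockout replicates 1 and 2. The highest knockout ratio was only just below the lowest control ratio, and the difference between the fold changes of the paralogs was not tested.

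The other members of the same initiation trimer are Polr3c and Polr3f. Polr3f stood at 49.2, 52.4 and 56.5 CPM in the controls and 33.4 and 44.7 CPM in the knockouts (log2 fold change -0.43, SE 0.13, edgeR adjusted p = 0.06), with knockout replicate 1 the lowest, and passed with DESeq2 (adjusted p = 0.037) and without knockout replicate 2 (edgeR adjusted p = 0.011). Its log2 fold change after the length and GC offset was -0.21 (edgeR adjusted p = 0.23). Polr3c had a log2 fold change of -0.12 and overlapped between groups. Polr3k, needed for RNA cleavage and termination, was at 26.4, 26.9 and 29.1 CPM in the controls and 18.8 and 22.7 CPM in the knockouts (log2 fold change -0.41, SE 0.13, edgeR adjusted p = 0.059). It passed without knockout replicate 2, and its fold change was -0.096 after the length and GC offset.

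Polr3d and Polr3e, the TFIIF-like pair of polymerase III, had log2 fold changes of 0.082 and -0.15 and overlapped between groups. Of the 10 genes of polymerase III alone, 7 (70%) were thus below 0, against 49.8% of all genes tested. For 4 (40%) both knockout libraries lay below all controls, against 27.0%, and 1 (10%) was called, against 16.5%.

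**Figure D2:**
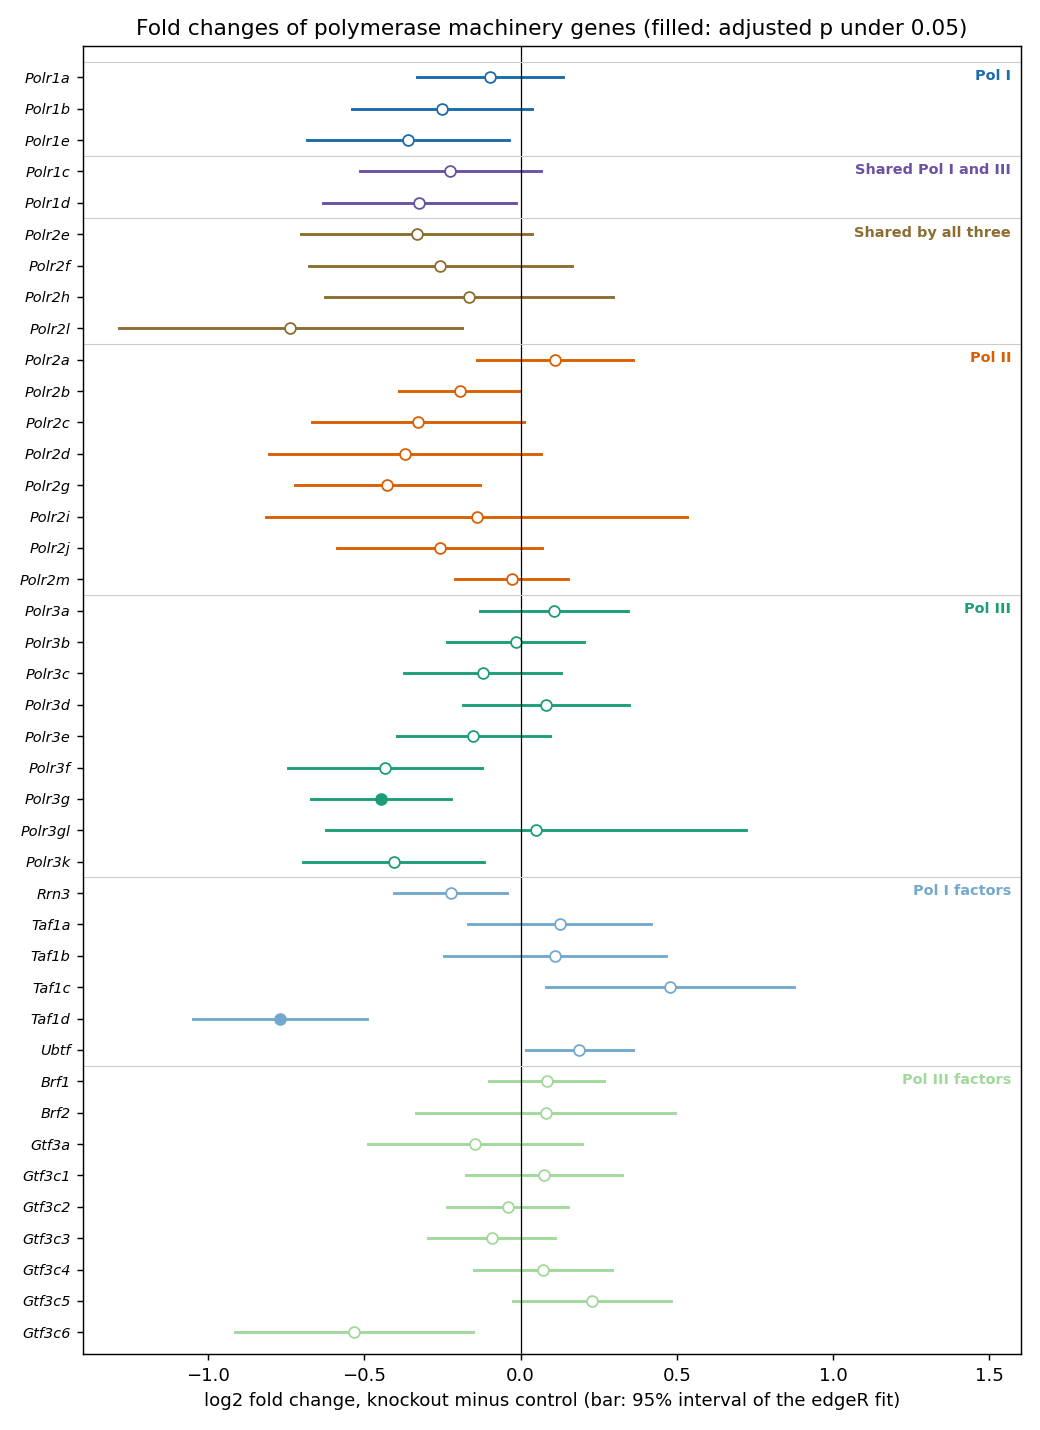
Log2 fold change of 41 of the genes, knockout minus control (x axis), with the 95% interval of the edgeR fit as a bar and filled points for genes with an adjusted p under 0.05. Taf1d and Polr3g are the filled points, and 22 of the 26 subunit genes drawn lie left of 0.

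The 6 factor genes of polymerase I had fold changes of both signs, and Taf1d alone passed the test (16.7% of them, against 16.5% of all genes tested). SL1, which carries the TATA-binding protein to the ribosomal RNA promoter, is built with Taf1a to Taf1d. Taf1d stood at 50.6, 56.8 and 54.3 CPM in control replicates 1 to 3 and 28 and 35.2 CPM in knockout replicates 1 and 2 (chromosome 9, 15306214 to 15316991, GRCm38). Both knockout values were far below the lowest control. It was 1.71-fold lower (53.9 ± 3.12 CPM, SD, n = 3, against 31.6 ± 5.12 CPM, SD, n = 2). On the log2 scale the change was -0.77 (SE 0.12, edgeR adjusted p = 0.013), the largest change of any member in this fit. Taf1d had, under the length and GC offset, -0.51 (edgeR adjusted p = 0.026), smaller than the values of Polr2l (-0.66) and Polr2c (-0.58). Taf1d passed in 12 of 14 alternatives, the exceptions being the fit without control replicate 2 (edgeR adjusted p = 0.063) and the replicate block together with the length and GC offset (0.057). The Taf1d gene is also a host of small nucleolar RNAs, with 8 such genes inside it on the same strand in GENCODE. Its exons overlap those of Cep295 and another gene on the other strand over 312 bases.

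None of the other SL1 genes passed, and their fold changes were above 0. Taf1c was at 16.5, 11.7 and 12.5 CPM in the controls and 19 and 18.8 CPM in the knockouts (log2 fold change 0.48, SE 0.17, edgeR adjusted p = 0.088). Both knockout libraries lay above all controls, and Taf1c passed only without control replicate 1 (edgeR adjusted p = 0.035). After the length and GC offset, the fold change of Taf1c was 0.045 (its transcript, with 60.8% GC, is the most GC-rich of the members). Taf1a (0.13) and Taf1b (0.11) did not pass, and the same offset gave 0.38 and 0.33 for them, also uncalled.

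Rrn3, which makes polymerase I competent to start by joining it to SL1, stood at 98.8, 104 and 105 CPM in the controls and 85 and 90.7 CPM in the knockouts (log2 fold change -0.22, SE 0.079, edgeR adjusted p = 0.083). Both knockout libraries were below the controls, and the length and GC offset gave -0.12. Ubtf, the factor that keeps ribosomal DNA open and bends it at the promoter, stood at 112, 107 and 106 CPM in the controls and 124 and 123 CPM in the knockouts (log2 fold change 0.19, SE 0.075, edgeR adjusted p = 0.11). Here both knockout libraries were above the controls. Ubtf passed with library totals as the only scaling (edgeR adjusted p = 0.045), and its direction flipped to -0.068 after the length and GC offset.

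Among the 9 factor genes of polymerase III, 0 were called, against 16.5% of all genes tested. In the edgeR fit 1 gene (11.1%) stood at an unadjusted p under 0.05, against 35.8%. DESeq2 called that gene alone, and 19.8% of all genes tested. That gene was Gtf3c6, a small subunit of TFIIIC, the complex that reads the internal promoters of transfer RNA genes. Gtf3c6 stood at 25.7, 35.1 and 37.3 CPM in the controls and 21.5 and 23.7 CPM in the knockouts (log2 fold change -0.53, SE 0.17, edgeR adjusted p = 0.06, DESeq2 adjusted p = 0.038). Control replicate 1 was close to the knockouts, and without it Gtf3c6 passed (log2 fold change -0.68, edgeR adjusted p = 0.022). Gtf3c6 had, under the length and GC offset, -0.34 (edgeR adjusted p = 0.15). Gtf3c5 was at 26.1, 24.2 and 26 CPM in the controls and 31.8 and 27.8 CPM in the knockouts (log2 fold change 0.23, SE 0.11, edgeR adjusted p = 0.17), above all controls in both knockouts, and had 0.13 after that offset.

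The large TFIIIC genes lay close to their control levels. Gtf3c1, the largest subunit and the most abundant transcript of the factors, was at 297, 256 and 236 CPM in the controls and 281 and 274 CPM in the knockouts (log2 fold change 0.076, SE 0.11, edgeR adjusted p = 0.64). Gtf3c2, Gtf3c3 and Gtf3c4 had log2 fold changes of -0.041, -0.092 and 0.072, and Gtf3a, the TFIIIA protein of 5S RNA genes, had -0.15. Exons of Gtf3c2 share 2556 bases with those of Gm29609 on the same strand in GENCODE, so reads there cannot be told apart. After the length and GC offset Gtf3c1 turned to -0.28, Gtf3c3 to 0.14 and Gtf3c4 to -0.040, and none of them passed.

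TFIIIB, which brings polymerase III to its promoters, contains Brf1 at transfer RNA and 5S genes and Brf2 at genes of the U6 type. Brf1 stood at 83.3, 80.6 and 76 CPM in the controls and 86 and 83.4 CPM in the knockouts (log2 fold change 0.083, SE 0.079, edgeR adjusted p = 0.48), and Brf2 at 7.76, 6.98 and 6.60 CPM in the controls and 7.09 and 7.96 CPM in the knockouts (log2 fold change 0.081, SE 0.18, edgeR adjusted p = 0.78). Brf1 was marginally above all controls in both knockouts, Brf2 overlapped, and the 95% intervals were -0.10 to 0.27 and -0.33 to 0.49. Per kilobase of transcript, Brf1 was 6.22 to 6.68 times Brf2 in the controls and 7.03 and 6.07 times in the knockouts, so the ratio of these alternative factors overlapped between groups.

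Set side by side, the classes had these median log2 fold changes: -0.25 for the subunits of polymerase I alone, -0.23 for polymerase II alone and -0.14 for polymerase III alone. The subunits shared by polymerases I and III had -0.27 and the common subunits -0.29. The factors of polymerase I had 0.12 and those of polymerase III 0.072, while their means were -0.016 and -0.031. After the length and GC offset both factor medians were below 0 (-0.011 and -0.040). When shared subunits were counted with every enzyme that holds them, the medians were -0.26, -0.26 and -0.24 for polymerases I, II and III (9, 12 and 16 genes). The offset for length and GC gave medians of the subunits alone of -0.35, -0.12 and -0.084 for polymerases I, II and III, and with shared subunits -0.32, -0.15 and -0.18. Without control replicate 1 the median of polymerase I alone was -0.13, and without control replicate 3 it was -0.33. The differences between the enzymes were not tested.

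In single libraries, the mean over a class was taken as the difference of log2 (CPM + 1) from the control mean. For polymerase I it was -0.25 and -0.20 in knockout replicates 1 and 2 against -0.079 to 0.14 in the controls. For polymerase II it was -0.24 and -0.13 against -0.076 to 0.057, and for polymerase III -0.19 and -0.13 against -0.028 to 0.026. In all 3 classes both knockout libraries lay below every control library, with knockout replicate 1 the lower. That replicate also had the higher mesenchyme and muscle marker levels, and knockout replicate 2 the higher retina marker level; their part in these class means was not tested. Polymerase I factors overlapped between groups, with -0.061 and 0.027 against -0.027 to 0.013. Polymerase III factors lay at -0.032 and -0.021 against -0.017 to 0.019, so that both knockout means were below the controls by a narrow margin although the median fold change was above 0.

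**Figure D3:**
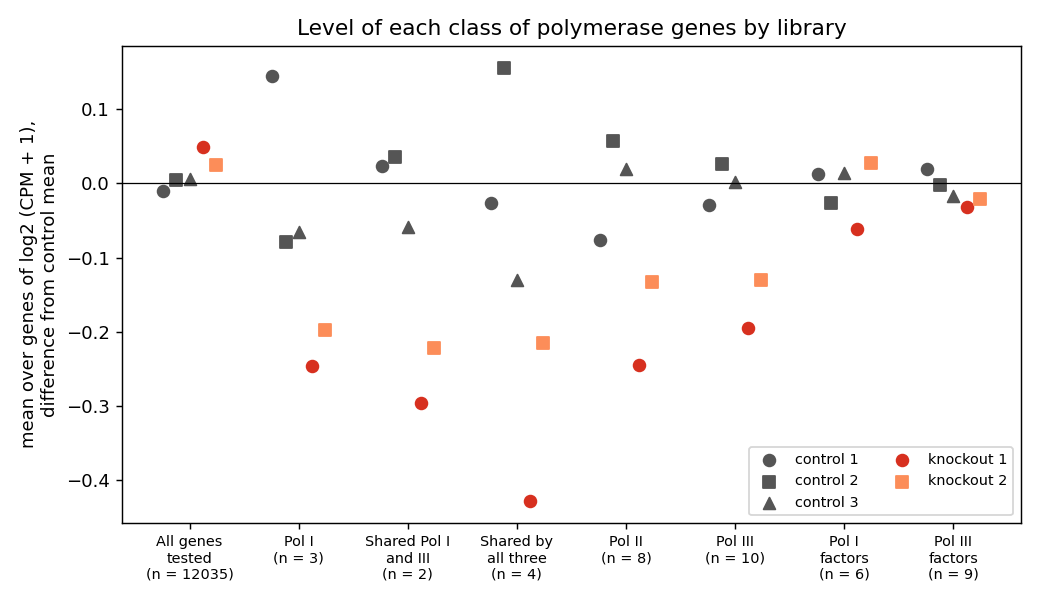
Mean over the genes of each class of log2 (CPM + 1) minus the control mean (y axis), 1 point per library, with n the number of genes in the class. Both knockout libraries lie below all controls in the 5 subunit classes, while all genes tested lie at 0.049 and 0.024 in the knockouts.

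The subunit transcripts differed widely in abundance. The ends of the range were Polr2m, whose protein Gdown1 binds polymerase II, and Polr3gl, the paralog that replaces Polr3g. Per kilobase of the longest annotated transcript, the control levels of the 42 genes spanned 24.4-fold, and in the order of levels the control ranges of 34 of 41 neighbouring pairs overlapped. The highest subunit levels were those of Polr2m (61.4 ± 1.85 CPM per kilobase, SD, n = 3), Polr2a (49.7 ± 5.92) and Polr2b (34.2 ± 2.05). The lowest were those of Polr2l (3.55 ± 0.457) and Polr3gl (2.52 ± 0.60). The median control level was 25.8 CPM per kilobase for subunits of polymerase II alone, 12.6 for polymerase I and 10.1 for polymerase III.

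**Figure D4:**
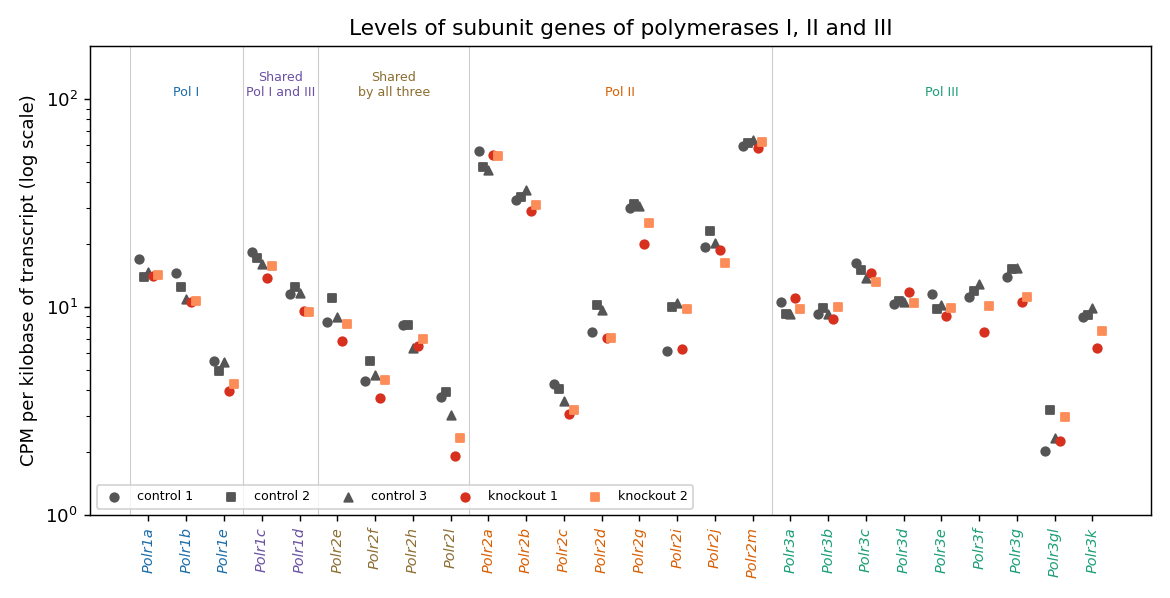
Level of 26 subunit genes in CPM per kilobase of its longest transcript (y axis, log scale), 1 point per library. Polymerase II holds the highest levels, and the genes of polymerase III, Polr3gl aside, lie close to one another.

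Fold changes over the whole table ran with the GC content of transcripts. Genes were split by GC content into 5 groups of like size. In the lowest group (43.9% GC or less) 21.0% of genes were called lower, and the median log2 fold change was -0.24. That group held 5 members, Taf1d and Polr3g among them. In the highest group the median was 0.26, while the 6 members there had a median of -0.14. The rank correlation of GC content with the change (Spearman's rho across genes, a description) was 0.271 over the 42 members and 0.458 over 11804 genes. After the length and GC offset, 24 of 27 subunit genes had a fold change below 0 and their median was -0.17. The median of the factors changed sign to -0.04. Taf1d, Polr1a and Polr2c were then the members called.

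**Figure D5:**
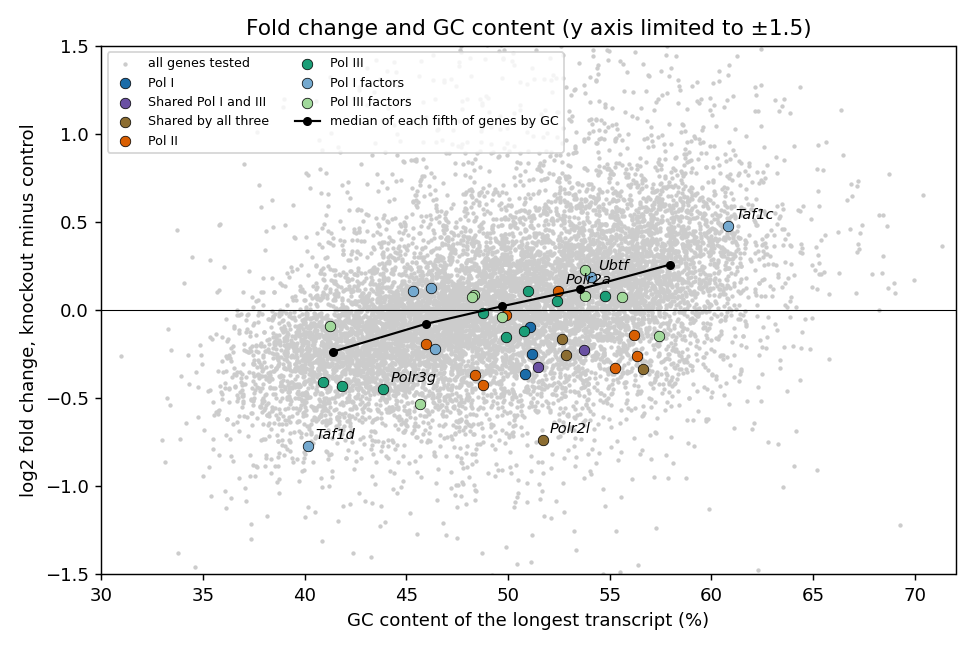
Log2 fold change, knockout minus control (y axis), against the GC content of the longest transcript in percent (x axis), with all genes tested in grey, 41 members in colour and the medians of 5 groups of genes by GC content as a line. Of all 27 subunit genes, 26 lie below the median of their own GC group.

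Genes that work with the polymerases were described from 8 lists of textbook factors, of which 129 genes were tested. Of these 13 fell (10.1%, against 8.51% of all genes tested) and 2 rose (1.55%, against 7.98%). When counts were scaled by library totals alone, 5 fell and 3 rose (6.2% called, against 17.8% of all genes tested). Of 3 polymerase I subunits under other symbols (Cd3eap, Twistnb and Znrd1), 0 were called, and Twistnb had the lowest adjusted p (log2 fold change -0.40, edgeR adjusted p = 0.12). Cd3eap had -0.21 and Znrd1 0.094. Of 6 polymerase I regulators 2 fell. They were Ddx21, a helicase of the nucleolus (176, 166 and 170 CPM in the controls, 106 and 136 CPM in the knockouts, log2 fold change -0.50), and Nolc1, a nucleolar chaperone (-0.31). Of 11 genes listed as partners of polymerase III 1 fell, Ssb (101, 122 and 126 CPM against 75.4 and 91.8 CPM, -0.48). Ssb is the La protein that protects the ends of polymerase III transcripts. That list also holds Crcp, a polymerase III subunit outside the symbol rule (log2 fold change -0.37, edgeR adjusted p = 0.06). Ddx21 and Nolc1 also passed after the length and GC offset, and Ssb had -0.01.

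Of 32 general factors of polymerase II 3 fell: Gtf2a1 (log2 fold change -0.41), a TFIIA gene, and Ccnh (-0.74) and Mnat1 (-0.38), partners of the TFIIH kinase Cdk7, which itself had -0.022. Of 23 elongation genes 3 fell, Ell2 (-0.68), Cdc73 (-0.47) and Leo1 (-0.48), and Ell, the paralog of Ell2, rose (0.50). Cdc73 and Leo1 belong to the PAF1 complex, which travels with the enzyme. Of 32 Mediator genes Ccnc (-0.59), Cdk8 (-0.42) and Med7 (-0.79) fell and Med12 rose (0.50). Ccnc is the cyclin partner of Cdk8. Under the length and GC offset Ccnc (-0.12), Cdk8 (-0.20), Med7 (-0.43), Med12 (0.24), Ell (0.27), Cdc73 (-0.21), Gtf2a1 (-0.21), Ccnh (-0.29), Mnat1 (0.0009) and Uri1 (-0.24) were not called, while Ell2 (-0.42) and Leo1 (-0.59) were. Of 14 polymerase assembly genes Uri1 fell (-0.37), and of 8 mitochondrial transcription genes 0 were called, Tefm having the lowest adjusted p (-0.65, edgeR adjusted p = 0.056). After the length and GC offset 6 genes of these lists were lower and 0 higher (4.65% called, against 9.78% of all genes tested). Without control replicate 2 edgeR called 0 (0.317% of all genes tested were called).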

How the data were processed

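The values in the table that the authors deposited are raw counts by gene symbol, with no normalization. Per the submitters' processing notes, the tools included Cufflinks 2.2.1, HTSeq 0.6.1, TopHat2 2.0.13, Trim Galore 0.3.7 and DESeq2, on mm10; which tool made the counts, and with which annotation and strand setting, was not stated. Counts were tested with edgeR 4.0.16 (R 4.3.3): filterByExpr with a minimum count of 10 kept 12035 symbols, then TMM scaling and the quasi-likelihood test without covariates, with Benjamini-Hochberg adjustment over all genes tested and a threshold of 0.05. The SE is the log2 fold change over the square root of F. CPM rests on TMM-scaled totals, and log2 CPM has a pseudocount of 1. Alternatives used limma 3.58.1, DESeq2 1.42.0, other scalings and filters, a loess offset for length and GC content (span 0.3), the replicate block and leaving out each library.

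Members, gene lists and the rule for named genes were chosen with earlier results of these data known. The rule takes called members, a fixed set of core genes, and the most abundant and most changed gene of each class, with up to 4 called genes per list or else the gene with the lowest adjusted p; other members with values were chosen after these were seen. GENCODE vM21 (GRCm38) gave length and GC content for 98.1% of genes tested and positions for all 42 members, and RefSeq gave promoters. The script was tested on simulated data. Libraries of a group differed beyond sampling noise (chi-square over degrees of freedom 9.98 to 23.4). The values of 1 member are not reported here, and it is left out of the figures that show single genes; counts and medians over members include it.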

Additional observations from a re-analysis of the deposited data

How the results depend on the processing

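Of the 42 members, 32 were called in none of 14 alternatives, and 21 to 24 of 27 subunit genes were below 0 in each. Of the 23 below 0 in the reported fit, 20 to 23 were below 0 in each alternative. At raw counts of 37 to 5078 the depth limits low genes such as Polr3gl most. Leaving out single libraries gave 0 to 5 members called lower and 0 to 1 higher, and 17 to 1291 genes called lower and 21 to 1426 higher over the whole table. Where a knockout library is left out, the lone knockout library is assumed to vary like the controls. In the fits that left out single libraries, class medians ran from -0.33 to -0.13 for polymerase I and -0.44 to -0.16 for the common subunits. They ran from -0.30 to -0.18 for polymerase II and -0.18 to -0.075 for polymerase III. For polymerase I factors they ran from 0.079 to 0.17, and for polymerase III factors from -0.0106 to 0.12. In the same fits, fold changes crossed 0 for Brf2 (-0.0068 to 0.17), Gtf3c2 (-0.081 to 0.0071), Gtf3c4 (-0.0106 to 0.15), Polr2i (-0.50 to 0.15), Polr2m (-0.083 to 0.025), Polr3b (-0.11 to 0.075), Polr3d (-0.0057 to 0.17) and Polr3gl (-0.16 to 0.27).

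DESeq2 called 4 of 42 members lower and 0 higher. Over the whole table it called 1207 of 12035 genes lower and 1175 higher (19.8% called). With library totals as the only scaling, 1 member was higher, 637 genes were lower and 1511 higher, and the median of all genes was 0.087. Medians were -0.19 for subunits shared by polymerases I and III, -0.14 for polymerase II, -0.051 for polymerase III, 0.20 for polymerase I factors and 0.15 for polymerase III factors, and Gtf3c2 (0.044), Polr2m (0.0545) and Polr3b (0.067) turned. With the length and GC offset 452 genes were higher. The same medians were -0.18, -0.12, -0.084, -0.011 and -0.04, and Gtf3c1 (-0.28), Gtf3c3 (0.14), Gtf3c4 (-0.04), Polr2a (-0.13), Polr2m (0.065), Polr3a (-0.033) and Ubtf (-0.0675) turned. The causes were not tested. In the reported fit, counting shared subunits gave a polymerase III median of -0.24.

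The replicate numbers are not shown to pair the libraries (correlation of same-numbered deviations -0.093 and 0.0073). The replicate block called 1 member and 522 genes lower and 473 higher, with medians of -0.18 for polymerase III, 0.16 for polymerase I factors and 0.0066 for polymerase III factors, and Polr2i at 0.003. The replicate block with the length and GC offset called 0 members and 146 genes lower and 104 higher. Its medians were -0.20 for subunits shared by polymerases I and III, -0.12 for polymerase II, -0.013 for polymerase I factors and -0.023 for polymerase III factors. Gtf3c1 (-0.32), Gtf3c3 (0.15), Gtf3c4 (-0.023), Polr2a (-0.17), Polr2i (0.12), Polr2m (0.079), Polr3a (-0.053) and Ubtf (-0.0685) turned under that replicate block.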
